A study of Mus musculus with 16 samples.

Results

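The genes of 9 regulators of G protein signalling (RGS proteins) were followed in mice with and without KLF15, in liver and in quadriceps muscle. The genes were Rgs16, Rgs1, Rgs2, Rgs3, Rgs4, Rgs5, Rgs10, Rgs14 and Rgs19. Every probe set that the platform annotation pairs with 1 of these 9 gene symbols and no other was taken, which gave 21 probe sets among the 22626 that are not controls. Rgs3 and Rgs5 had 4 probe sets each, Rgs16 and Rgs4 had 3, Rgs2 and Rgs19 had 2, and Rgs1, Rgs10 and Rgs14 had 1. The family was chosen by its Rgs16 signals, which were low in knockout liver, so the liver values below are a description with no test.

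RGS proteins end G protein signalling. They bind the active alpha subunit of a heterotrimeric G protein and speed its hydrolysis of GTP, which shortens the response to hormones that act through G protein coupled receptors. Rgs16 is a small RGS protein of the R4 subfamily that acts on Gi and Gq alpha subunits. In mouse liver it is known as a gene of hepatocytes that responds to fasting and feeding and to the glucose-sensing factor ChREBP. Rgs5 is known as a marker of pericytes and vascular smooth muscle.

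Klf15 encodes a zinc finger transcription factor of the Krüppel-like family, which bind GC-rich and CACCC sequences. The 4 groups of 4 samples were wild-type liver, KLF15-null liver, wild-type quadriceps and KLF15-null quadriceps. All came from female mice aged 4 to 5 months that had been fasted for 18 h, so no fed sample was compared and the null allele is present in every tissue. Total RNA of each sample was hybridized to 1 Affymetrix mouse array, and wild-type samples carry the numbers 1 to 4 and knockout samples 5 to 8 in both tissues. The labels do not say that each sample is a separate animal, so p-values here reflect sample-to-sample spread, which may be technical. In bulk tissue, fewer cells of a type and less RNA per cell cannot be told apart.

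Array medians ran from 41.6 to 48.9 in liver and from 32.5 to 59.2 on 7 quadriceps arrays, but the median was 15.6 for knockout quadriceps sample 8. That array also had the highest 3′ to 5′ ratio of Gapdh probes, 1.09 against at most 0.937 on the other quadriceps arrays. Knockout samples 5 to 7 differed too, with ratios of 0.787, 0.790 and 0.785, below the wild-type quadriceps range of 0.855 to 0.937. The 100 brightest probe sets held 21.3% of the signal of sample 8 against at most 16.03% on any other array. Sample 8 was scanned on a later day than the other quadriceps arrays. The comparison of the quadriceps genotypes is therefore given with and without it. Klf15 signal (probe set 1448181_at) was 1093 ± 195 (SD, n = 4) in wild-type and 165 ± 23.6 in knockout liver, and no knockout array overlapped a wild-type array in either tissue. Marker sums were taken after scaling all 16 arrays to 1 median. Hepatocyte markers summed to between 43393 and 51817 on the liver arrays and to at most 383 on the quadriceps arrays. Myofibre markers summed to between 63454 and 217183 on the quadriceps arrays and to at most 115 on the liver arrays. Sample 8 of the knockout had the highest myofibre sum, which depends on its scaling factor of 2.78. The fluidics station differed between the genotypes in each tissue and was the same within a genotype, so its effect and that of the genotype cannot be told apart.

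Rgs16 was far lower in knockout liver than in wild-type liver on all of its 3 probe sets. On probe set 1426037_a_at the wild-type signals were 222, 474, 678 and 464 in samples 1 to 4, and the knockout signals were 22.3, 44.9, 6.5 and 1.2 in samples 5 to 8. The lowest wild-type array was thus well above the highest knockout array. The difference on the log2(signal + 16) scale was -3.85 (SE 0.37), a scale on which the change of dim genes is understated.

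The other probe sets gave the same picture. On 1455265_a_at the wild-type arrays read 160, 360, 637 and 452, and the knockout arrays 43.1, 45.8, 18.6 and 12.2, a log2 difference of -3.12 (SE 0.35). On 1451452_a_at the wild-type arrays read 85.6, 196, 236 and 174, and the knockout arrays 31.3, 30.1, 9.1 and 9.9, a log2 difference of -2.37 (SE 0.28). Wild-type sample 3 was highest and wild-type sample 1 lowest on each of the 3 probe sets. Knockout samples 5 and 6 were above samples 7 and 8 on each of them. The mean knockout signals of 18.7, 29.9 and 20.1 lay near the signal of 25.1 below which a probe set's mean kept it out of the liver fit, so the remaining level in knockout liver is close to the dim end of the array.

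**Figure D1:**
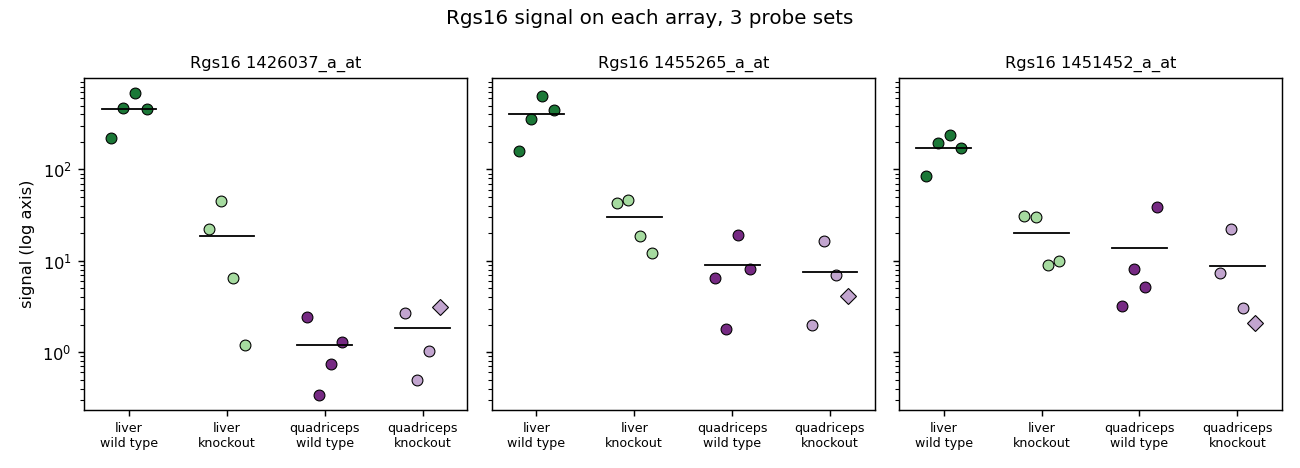
Signal (log axis) of the 3 Rgs16 probe sets on each of the 16 arrays, by tissue and genotype. Liver signals are as deposited and quadriceps signals are scaled to 1 median. Each point is 1 array, the bar is the group mean and the diamond is knockout quadriceps sample 8. Wild-type liver, at 85.6 or more, stands above every other group, all of whose arrays lie at 45.8 or less.

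The 250 bases before the RefSeq transcription start of Rgs16 are shown because Krüppel-like factors bind CACCC and GC-rich letters. They lie at chr1:153740103-153740352 on the plus strand of GRCm38.p6, and capitals mark CACCC on either strand (GGGTG where it lies on the opposite strand).
Rgs16 upstream: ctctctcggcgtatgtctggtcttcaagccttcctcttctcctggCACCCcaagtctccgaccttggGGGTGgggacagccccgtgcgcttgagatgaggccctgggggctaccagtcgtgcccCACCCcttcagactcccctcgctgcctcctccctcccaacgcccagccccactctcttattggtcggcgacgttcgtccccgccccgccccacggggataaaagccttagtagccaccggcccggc
CACCC was found 205 and 126 bases before the start on the gene's strand and 183 bases before it on the opposite strand. The GC box GGGCGG was found 47 and 42 bases before the start, both on the opposite strand, and the E-box CACGTG was not in this window. Such letters are common, since CACCC occurred on either strand in 57.5%, GGGCGG in 35.7% and CACGTG in 7.15% of 32851 RefSeq windows of 300 bases, each of which runs from 250 bases before to 50 bases after a start. Of the 9 genes, 7 had entries, 10 in all, and 9 of the 10 held CACCC, the exception being that of Rgs5. A match is a description of the letters and not a measured binding site.

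The other family members overlapped between the liver genotypes. Of the 21 probe sets, 15 passed the filter on dim probe sets in liver, and only the 3 of Rgs16 had no array of one genotype within the range of the other. How many of all probe sets separate the genotypes in this way was not counted. Over all probe sets 8.73% passed an adjusted p of 0.05 in the limma fit (582 higher and 603 lower of 13577), and since this contrast chose the family nothing is read from the members here. The median log2 difference was 0.01 over the 15 tested members and 0.03 over all tested probe sets.

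Rgs1, Rgs2, Rgs3, Rgs4 and Rgs5 are of the same R4 subfamily as Rgs16. Rgs1, best known from B lymphocytes and macrophages, read 72.5, 61.4, 51.5 and 31.5 in wild-type and 23.9, 24.1, 34.3 and 58.0 in knockout liver (log2 difference -0.47, SE 0.23). Wild-type sample 4 and knockout sample 8 make these groups overlap. The 8 lymphocyte markers on the array summed to between 255 and 406 on wild-type and between 300 and 502 on knockout liver arrays, and the 8 macrophage markers to between 4507 and 7132 and between 4765 and 7064. Single macrophage markers moved more than the sum. Marco, a scavenger receptor gene, read 58.3 ± 30.3 in wild-type and 219 ± 130 in knockout liver (SD, n = 4), a log2 difference of 1.58 (SE 0.42). Lyz2, a lysozyme gene, differed by 0.41 (SE 0.14). Of the 8 macrophage markers only Marco passed the limma threshold. Cd5l was lower, at -0.11, and the rest of these markers lay between 0.08 and 0.24. Their part in the Rgs1 values was not tested.

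Rgs2, which acts mainly on Gq and is known from the control of vascular tone, had the same log2 difference of 0.38 on both probe sets (SE 0.20 and 0.24), with overlapping arrays. Rgs3, which also exists as long forms with a PDZ domain, had differences of -0.13 and 0.15 on its 2 tested probe sets. Rgs5 was level in liver, with a signal of 474 ± 70.6 in wild-type and 452 ± 44.6 in knockout (SD, n = 4) on 1417466_at and differences between -0.06 and 0.06 on its 4 probe sets. The genotypes overlapped on each of these probe sets. None of the 3 Rgs4 probe sets passed the filter in liver.

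Rgs10 and Rgs14 belong to the R12 subfamily, in which Rgs14 also carries a GoLoco motif that binds inactive Gi alpha subunits. Rgs10, known from macrophages and microglia, differed by 0.01 (SE 0.15) between the liver genotypes and Rgs14 by 0.08 (SE 0.26). Rgs19, a member of the RZ subfamily first found as a partner of a Gi alpha subunit, differed by 0.11 (SE 0.21) on the probe set that passed the filter.

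The rest of the pathway in liver is described for the same contrast, also with no p, and its counts of genes past the limma threshold stand beside the 8.73% of all probe sets. Of 8 tested G alpha subunits, 1 passed and was lower in the knockout. This was Gna12, a subunit of the G12 class, at 371 ± 13.6 in wild-type and 248 ± 51.8 in knockout (log2 difference -0.57, SE 0.13). None of 8 G beta and gamma subunits, 9 other modulators of G proteins, 4 receptor kinases and arrestins, 7 adenylyl cyclases and phospholipases C beta or the 1 other tested Rgs gene passed. Of 9 receptors coupled to G proteins, 1 was higher and 1 lower. The lower one, the succinate receptor gene Sucnr1, read 264 ± 68.2 in wild-type and 7.92 ± 5.84 in knockout (-3.55, SE 0.21), and the higher one, Gpr146, read 118 ± 19.0 and 185 ± 17.3 (0.59, SE 0.12).

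Glucose-responsive genes linked to ChREBP were mixed in the same arrays. Of 12 tested, 5 were lower and 1 was higher in the knockout (6 past the threshold, against 8.73% of all probe sets). Khk, which phosphorylates fructose, differed by -1.21 (SE 0.13), Fasn, the fatty acid synthase, by -1.22 (SE 0.12) and Acacb, an acetyl-CoA carboxylase, by 0.83 (SE 0.14). The other 3 were Pklr, the liver pyruvate kinase, at -0.74 (SE 0.16), Elovl6, a fatty acid elongase, at -0.73 (SE 0.15), and Txnip, a thioredoxin-binding protein, at -0.36 (SE 0.09). Of 5 tested periportal hepatocyte genes none passed, with a median difference of 0.21, and of 8 pericentral genes 5 were lower and none higher, with a median of -0.35. Lgr5, a pericentral receptor, differed by -1.03 (SE 0.18) and Glul, the glutamine synthetase, by -0.45 (SE 0.09), and the other 3 were Rhbg at -0.60, Cyp27a1 at -0.46 and Cyp2e1 at -0.24. Of 7 general hepatocyte markers Tat, at -0.67 (SE 0.11), and Cyp2e1 were lower and past the threshold, and of 8 endothelial markers Kdr was higher at 0.49 (SE 0.13).

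In quadriceps Rgs16 was dim in both genotypes. After scaling, no array read above 38.9 on any of its 3 probe sets, and none passed the filter, so the knockout and wild-type levels of Rgs16 in muscle could not be told apart from the dim end of the array. With the filter lifted, the log2 differences were 0.05, -0.08 and -0.20, each smaller than its standard error.

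No member passed the test between knockout and wild-type quadriceps with all arrays. Of the 13 probe sets tested, 0 passed the adjusted p of 0.05 in the limma fit and 2 had an unadjusted p under 0.05, while 0.597% of all 13576 probe sets passed. The median log2 difference was 0.10 over the members and -0.15 over all tested probe sets. Each of the 18 gene lists also held 0 genes past the threshold in quadriceps with all arrays.

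Both probe sets with the small unadjusted p were of Rgs5, and here 1 array decided the outcome. On 1420941_at the wild-type signals were 152, 127, 101 and 113, and the knockout signals were 538, 526, 677 and 67.2. Samples 5, 6 and 7 thus lay far above all wild-type samples and sample 8 below all of them. The log2 difference with all arrays was 1.39 (SE 0.49, limma adjusted p = 0.223), and without sample 8 it was 2.11 (SE 0.17, adjusted p = 9.6e-06).

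The same split appeared on 1420940_x_at and 1420942_s_at. On 1420940_x_at the wild-type signals were 100.3, 124, 74.9 and 117, and the knockout signals 347, 314, 321 and 85.7. The log2 difference was 1.10 (SE 0.33, adjusted p = 0.170 in limma) with all arrays and 1.54 (SE 0.18, adjusted p = 0.000135) without sample 8. On 1420942_s_at the wild-type signals were 395, 415, 336 and 253, and the knockout signals 585, 768, 748 and 243. The difference was 0.62 (SE 0.31, limma adjusted p = 0.348) with all arrays and 0.98 (SE 0.19, adjusted p = 0.00523) without it. The platform annotation gives these 3 probe sets the same source sequence, so they are not independent measures of the gene, and the suffix x marks a probe set whose probes may also match other similar sequences.

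The fourth Rgs5 probe set, 1417466_at, did not follow them. Its wild-type signals were 3216, 4509, 3880 and 3758, and its knockout signals 2237, 2630, 3132 and 7159. Here samples 5 to 7 lay below all wild-type samples and, after scaling, sample 8 above all of them. The Gapdh 3′ to 5′ ratio of the quadriceps arrays had the same order as these scaled signals. Its part in the Rgs5 values was not tested. The place of sample 8 on 1417466_at depended on its scaling factor of 2.57. As deposited it read 2781, and knockout samples 5 to 7 read 3299, 2129 and 3323. These all lay below the deposited wild-type signals of 4158, 5267, 3643 and 3492. Without scaling the log2 difference was -0.52 (SE 0.21, limma adjusted p = 0.226). With all arrays the log2 difference on 1417466_at was -0.17 (SE 0.36, limma adjusted p = 0.847). Without sample 8 it was -0.53 (SE 0.18, limma adjusted p = 0.0533). No overall direction for Rgs5 in knockout quadriceps can therefore be given from these 4 probe sets.

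**Figure D2:**
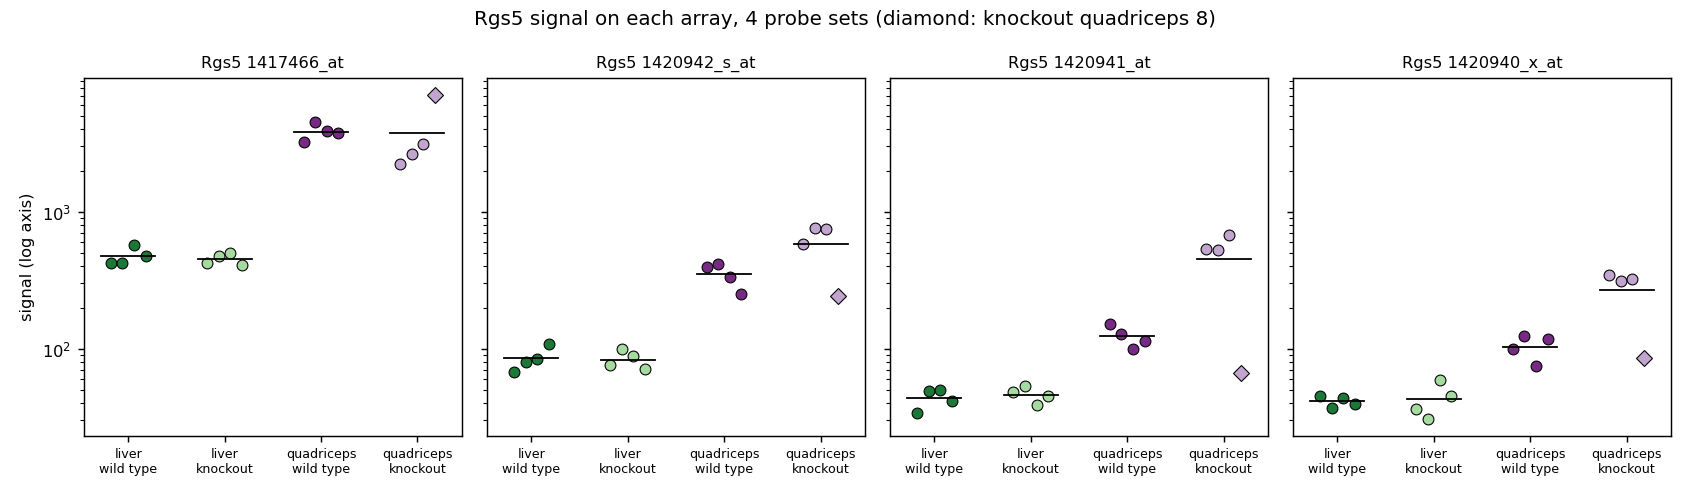
Signal (log axis) of the 4 Rgs5 probe sets on each of the 16 arrays, by tissue and genotype. Liver signals are as deposited and quadriceps signals are scaled to 1 median. Each point is 1 array, the bar is the group mean and the diamond is knockout quadriceps sample 8. In quadriceps, knockout samples 5 to 7 lie above the wild type on 3 probe sets and below it on 1417466_at, and sample 8 lies on the opposite side each time. On 1417466_at the place of sample 8 depends on its scaling, since as deposited it reads 2781, below every wild-type array.

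The ratio of 2 probe sets within an array does not depend on the scaling of that array. The log2 ratio of 1420941_at to 1417466_at was between -5.27 and -4.40 in wild-type quadriceps. It was -2.06, -2.32 and -2.21 in knockout samples 5 to 7 and -6.74 in sample 8. In liver it lay between -3.69 and -3.10 over both genotypes. The ratio thus moved by more than 2 log2 units in 3 of the 4 knockout muscles, and the other way in the fourth, which shows unequal change of the probe sets and not which of them changed.

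**Figure D3:**
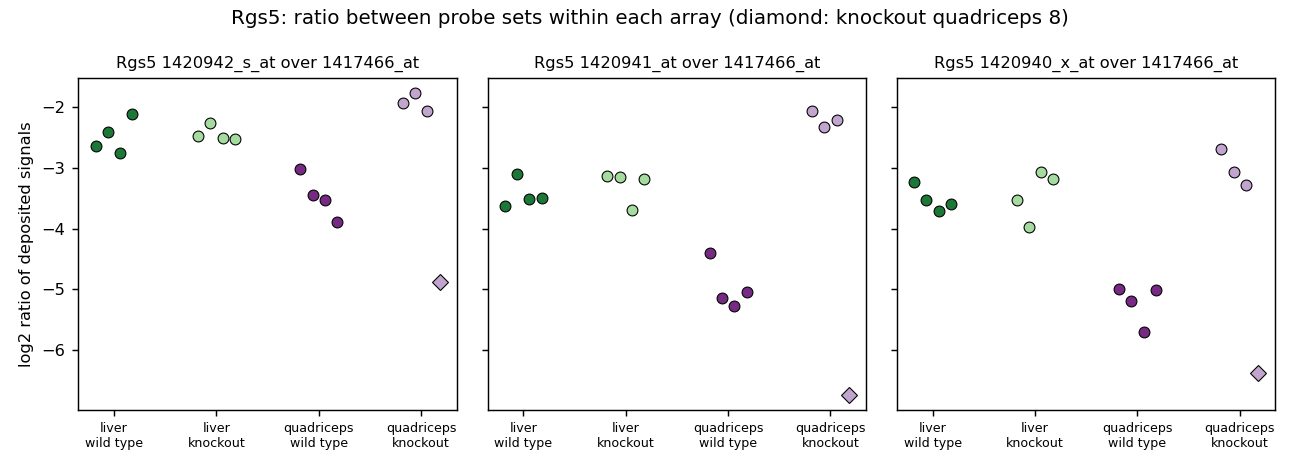
Log2 ratio of each of 3 Rgs5 probe sets to 1417466_at within each array, from deposited signals, by tissue and genotype. Each point is 1 array and the diamond is knockout quadriceps sample 8. Against 1417466_at, 1420941_at stands between -2.32 and -2.06 in knockout samples 5 to 7, above the wild-type range of -5.27 to -4.40, and at -6.74 in sample 8.

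Without knockout sample 8, 3 of the 13 tested members passed and were higher in the knockout, all of them Rgs5, while 4.42% of all tested probe sets passed and were higher. With quantile normalization, also without sample 8, that share was 6.86%, and 931 of the 1617 probe sets that passed were higher, against 600 of 2790 with the median scaling. That array changed the test for many other genes too, since 2790 probe sets passed without it and 81 with it. Among 232 probe sets that were at least 2-fold higher and passed without it, sample 8 was not above the wild-type arrays for 193. Without it, the difference between the highest and lowest Rgs5 probe set was 2.64 log2 units, and 8 of 2967 genes with several tested probe sets had a difference at least as large (0.270%, Rgs5 included), against a median of 0.46.

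The markers of the vascular cells known for Rgs5 did not pass in quadriceps with all arrays, and some did without sample 8. Of 9 tested markers of pericytes and smooth muscle 0 passed in limma with all arrays, 2 had an unadjusted p under 0.05, and the median difference was -0.22. These 2 were Abcc9, at 0.45 (SE 0.20), and Mcam, at -0.51 (SE 0.21). Of 8 endothelial markers 0 passed, 4 had an unadjusted p under 0.05, and the median was -0.35. Without sample 8, 1 of the 9 pericyte and smooth muscle markers was higher and 2 were lower past the limma threshold, and 2 of the 8 endothelial markers were lower, where 20.6% of all probe sets passed. The higher one was Abcc9, a potassium channel subunit, at 0.59 (SE 0.16), and the lower ones were Acta2 at -0.70, Notch3 at -0.63, Kdr at -0.76 and Esam at -0.57. The 10 pericyte and smooth muscle markers summed to between 2621 and 3346 on the wild-type arrays, between 2125 and 2496 on knockout samples 5 to 7 and to 3710 on sample 8. This is the same order as 1417466_at after scaling and the opposite of the other 3 probe sets. It was not particular to these markers, since the 4 platelet markers summed to between 286 and 314, between 230 and 278 and to 399. Sample 8 also had the highest quadriceps sums of macrophage and lymphocyte markers, though not of endothelial, adipocyte or hepatocyte markers. All these sums are of signals scaled to 1 median over the 16 arrays, which multiplied sample 8 by 2.78. The high sums of sample 8 depend on that factor. The 8 endothelial markers summed to between 1432 and 1666 on the wild-type and between 1096 and 1392 on the knockout arrays. Of 3 adipocyte markers 0 passed with all arrays and 2 were lower and passed without sample 8, when Adipoq, the adiponectin gene, differed by -1.55 (SE 0.24) and Lep, the leptin gene, by -0.84 (SE 0.26). With all arrays Adipoq differed by -1.12 (SE 0.37) and the median of the 3 was -0.65. The part of these cell types in the Rgs5 values was not tested.

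The remaining members in quadriceps did not pass with all arrays or without sample 8. With all arrays, the 2 probe sets of Rgs2 differed by -0.39 (SE 0.28, limma adjusted p = 0.497) and 0.10 (SE 0.27), and those of Rgs3 by 0.01 and 0.07. Rgs4, known from brain and heart as a regulator of Gi and Gq signals, differed by 0.16 (SE 0.23) and 0.38 (SE 0.33) on 2 probe sets. Rgs10, Rgs14 and Rgs19 differed by 0.09, 0.10 and 0.10, with standard errors from 0.18 to 0.25. Rgs1 did not pass the filter on dim probe sets.

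**Figure D4:**
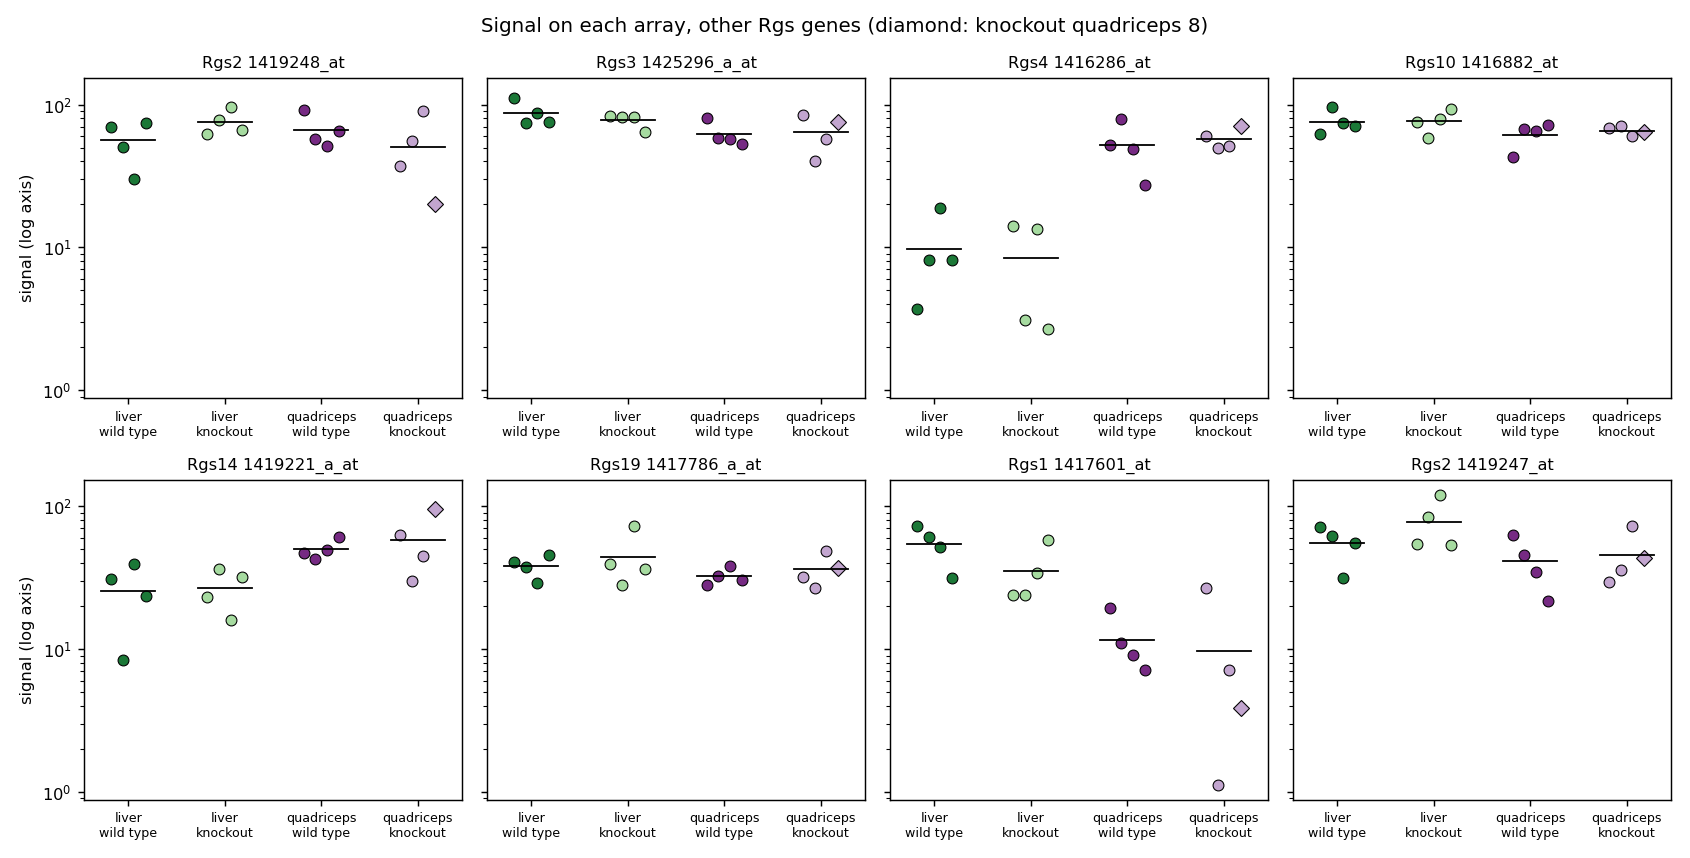
Signal (log axis) of 8 probe sets of Rgs2, Rgs3, Rgs4, Rgs10, Rgs14, Rgs19 and Rgs1 on each of the 16 arrays, by tissue and genotype, with liver as deposited and quadriceps scaled to 1 median. Each point is 1 array, the bar is the group mean and the diamond is knockout quadriceps sample 8. Genotypes overlap in each panel, and Rgs4 separates the tissues, at 19.0 or less in liver and 27.6 or more in quadriceps.

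Between the tissues the family divided by gene. For this comparison all 16 arrays were scaled to 1 median and quadriceps was set against liver within each genotype. Liver and quadriceps arrays were scanned on different days, so tissue and scan day cannot be told apart. Over all tested probe sets 70.4% passed in the wild type and 69.5% in the knockout. Rgs16 is left out of the members' counts, and these are given with the filter on dim probe sets lifted, since a member dim in liver can pass that filter through quadriceps alone. Of the 18 other member probe sets 7 then passed in each genotype, 6 higher in quadriceps and 1 lower, against 47.6% and 48.1% of all probe sets. These shares are below the background, so nothing is read from the number of members that passed. The adjusted p-values below describe single probe sets and do not set the family apart from other genes.

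Rgs16, whose wild-type liver arrays chose the family, is given without a test. On 1426037_a_at the signal on this scale was 456 ± 196 in wild-type liver, 18.5 ± 20.2 in knockout liver, 1.29 ± 0.96 in wild-type quadriceps and 1.98 ± 1.36 in knockout quadriceps (SD, n = 4). Wild-type liver stood apart from the other 3 groups, knockout liver overlapped knockout quadriceps, and the muscle genotypes overlapped. The wild-type difference, quadriceps minus liver, was -4.65, -3.90 and -2.65 on the 3 probe sets, and the knockout difference was -0.76, -0.86 and -0.49.

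Rgs5 differed in the opposite direction, with every quadriceps array above every liver array on each of its 4 probe sets on this scale. The share of all probe sets with such a separation of the tissues was not counted. For knockout quadriceps sample 8 it depended on the scaling on 3 probe sets. As deposited, that array read 26.1 on 1420941_at, 33.3 on 1420940_x_at and 94.6 on 1420942_s_at. Deposited liver signals there lay between 34.1 and 53.5, between 30.5 and 59.4, and between 67.8 and 109. On 1417466_at liver lay between 375 and 569 in the wild type and between 395 and 491 in the knockout, and quadriceps between 3471 and 4866 and between 2414 and 7725. The log2 difference was 3.12 (SE 0.26, limma adjusted p = 1.3e-09) in the wild type and 3.03 (SE 0.26, adjusted p = 2.0e-09) in the knockout. On the other 3 probe sets it was between 1.17 and 1.98 in the wild type and between 2.27 and 2.69 in the knockout, with limma adjusted p of at most 0.00894. Without knockout quadriceps sample 8 the knockout differences on the 4 probe sets lay between 2.67 and 3.40, where 71% of all probe sets passed. The order of the groups was therefore the same on all 4 probe sets for tissue, though not for genotype in muscle.

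Markers of other cell types moved with tissue as well. All 8 tested pericyte and smooth muscle markers were higher in wild-type quadriceps and passed, with a median log2 difference of 2.34, and 7 of 8 endothelial markers were higher and passed, where 70.4% of all probe sets did. Of 8 macrophage markers, 7 were lower in wild-type quadriceps and passed, with a median of -1.90. Their part in the levels of the Rgs genes was not tested.

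Rgs4 was also higher in quadriceps on 1 of its 3 probe sets. On 1416286_at liver lay between 3.29 and 18.9 in the wild type and 2.72 and 13.3 in the knockout, and quadriceps between 29.7 and 86.0 and between 53.5 and 76.1. It passed the filter through quadriceps only, so the fit of all probe sets without a filter is given. There the difference was 1.47 (SE 0.25, limma adjusted p = 3.8e-05) in the wild type and 1.74 (SE 0.25, adjusted p = 4.8e-06) in the knockout. The other 2 Rgs4 probe sets were dim in both tissues and did not pass in that fit, at 0.11 and -0.26 in the wild type and 0.34 and 0.27 in the knockout.

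Rgs14 was higher in quadriceps, at 54.0 ± 8.14 against 24.9 ± 12.7 in the wild type and 63.0 ± 30.6 against 26.3 ± 10.5 in the knockout (SD, n = 4). Its liver means lay below the filter's signal of 31.5, so here too the fit without a filter is given. The differences were 0.83 (SE 0.28, limma adjusted p = 0.0176) and 0.86 (SE 0.28, adjusted p = 0.0146). With the filter, the first did not pass without wild-type liver sample 2 (0.60, limma adjusted p = 0.0542), and the second did not pass without scaling (0.56, adjusted p = 0.105). Rgs3 passed only in the wild type and only on 1449516_a_at (0.43, limma adjusted p = 0.0467), while 1425296_a_at gave -0.28, and it failed the test in 16 of 27 other settings. In the knockout the same probe set gave 0.37 (limma adjusted p = 0.0897), and 0.53 (adjusted p = 0.0148) without quadriceps sample 6. Whether the tissue difference itself differed between the genotypes was not tested for these genes.

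Rgs1 was the member with higher liver signal beside Rgs16. It entered only when the filter on dim probe sets was lifted, with a level of 52.3 ± 14.2 in wild-type liver and 12.6 ± 5.85 in wild-type quadriceps (SD, n = 4). The difference was -1.25 (SE 0.28, limma adjusted p = 0.000808) in the wild type and -0.97 (SE 0.28, adjusted p = 0.00686) in the knockout. Rgs2, Rgs10 and Rgs19 did not pass in either genotype, with differences between -0.48 and 0.33. Without knockout quadriceps sample 7, however, both Rgs2 probe sets passed as lower in knockout quadriceps than in knockout liver (-0.70 and -0.68, limma adjusted p = 0.0206 and 0.0302).

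**Figure D5:**
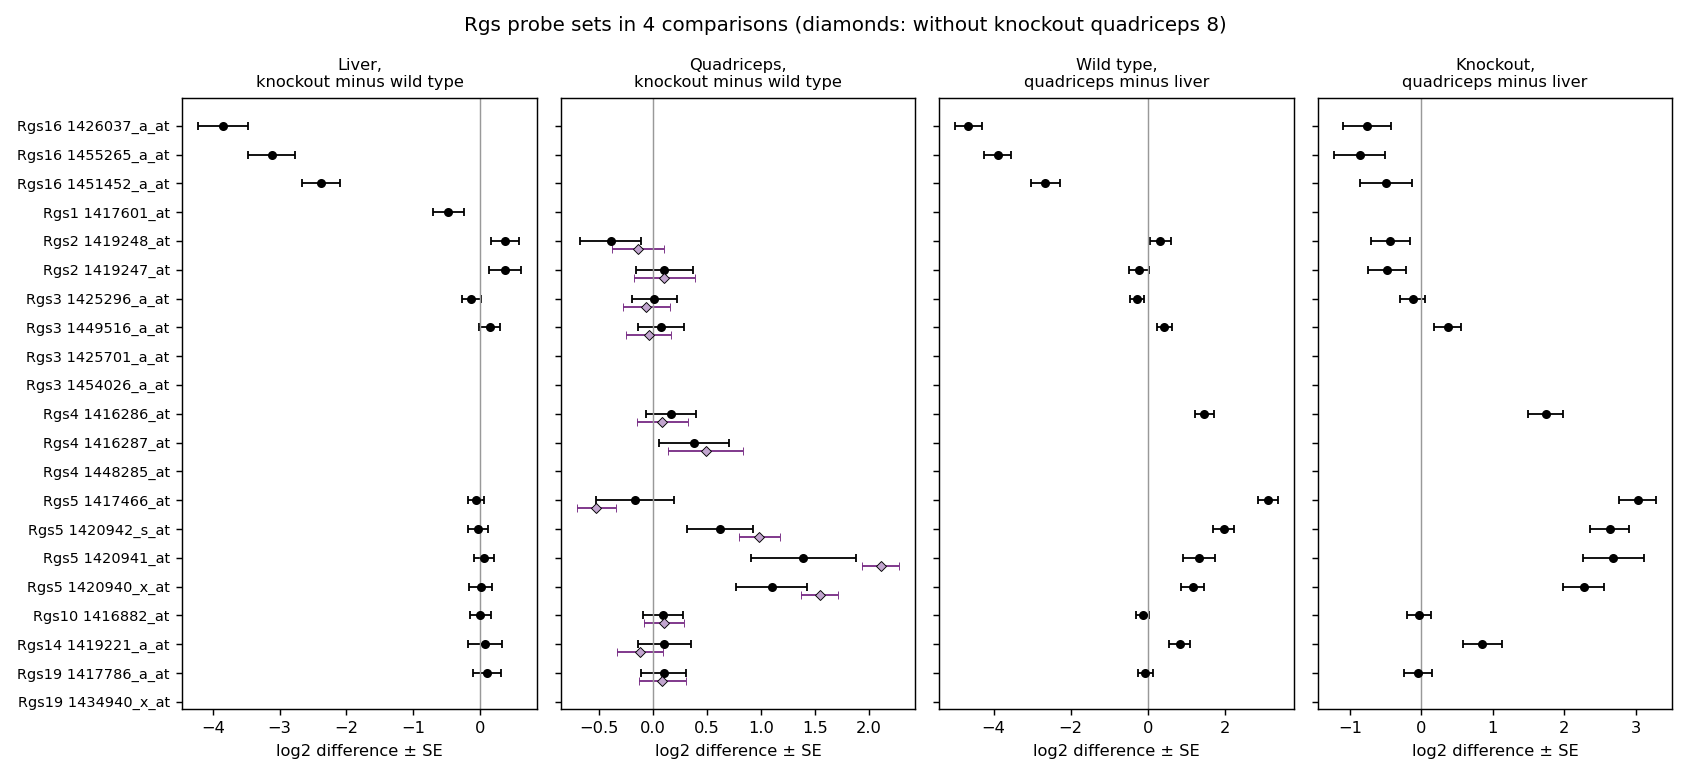
Log2 differences with standard errors of the 21 probe sets in the knockout minus wild-type comparison of each tissue and in the quadriceps minus liver comparison of each genotype. Black points use all arrays, diamonds in the quadriceps panel leave out knockout quadriceps sample 8, and a probe set below the filter has no point. Rgs16 stands at -3.85 to -2.37 in liver, and the 4 Rgs5 probe sets lie at 1.17 or more between the tissues.

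The wider pathway was compared between the tissues in the wild type with the filter kept, where 70.4% of all probe sets passed. Of 8 G alpha subunits, 3 were higher and 3 lower in quadriceps and passed, a share near that background. Gnai1, an inhibitory subunit, differed by 1.15 and Gnai3, another, by -1.62. Of 11 receptors 3 were higher and 5 lower, and the glucagon receptor gene Gcgr differed by -5.37. Of 4 receptor kinases and arrestins 2 were higher and 1 lower, and of 7 cyclases and phospholipases 3 were higher and none lower.

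The genes whose pattern lay closest to that of Rgs16 were found by Pearson correlation with 1426037_a_at on the log2 scale. Over the 16 arrays the highest were Papss2, which makes the sulphate donor PAPS, at 0.963, Ropn1l at 0.956, Serpina6, which encodes corticosteroid-binding globulin, at 0.952, and Pdk1, a pyruvate dehydrogenase kinase, at 0.943 and 0.942 on 2 probe sets. Over the 8 liver arrays they were 2 other probe sets of Papss2, at 0.989 and 0.988, Nfix at 0.988, Pla1a at 0.986 and Abcc3 at 0.983. These arrays share the genotype and tissue groups that separate Rgs16, so the values only describe a like order of groups. Papss2 signal on 1434510_at was 1324 ± 121 in wild-type and 226 ± 32.0 in knockout liver, and Serpina6 was 2357 ± 142 and 158 ± 115 (SD, n = 4).

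Among genes near Rgs16, Dhx9, a helicase gene, had a log2 difference of 0.02 between the liver genotypes, and Npl and Rgs8 were too dim to be tested. Rgs4 lies next to Rgs5 in the same annotation and was not tested in liver. Hsd17b7, a gene of steroid and cholesterol synthesis near Rgs5, read 166 in wild-type and 90.8 in knockout liver on average (-0.78), while Rgs5 differed by no more than 0.06.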

How the data were processed

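The authors deposited an unlogged signal intensity for every probe set on every array, which per the submitters' processing notes came from GCOS (Affymetrix). Its version, summary method and scaling were not given in the sources used here. Group and number came from the sample titles, and station, module and scan day from the deposited experiment records. Gene names came from the platform annotation.

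Liver signals, whose medians lay within 1.5 times, were used as deposited. Quadriceps arrays were scaled to 1 median by factors from 0.678 to 2.57, and all 16 arrays were for the tissue comparison. Probe sets with a mean at or above the 40th percentile (signal 25.1 in liver, 24.1 in quadriceps, 31.5 over all arrays) were fitted as log2(signal + 16) with limma 3.58.1 in R 4.3.3 (lmFit, eBayes with a variance trend). The Benjamini-Hochberg adjustment ran over all tested probe sets, with a threshold of 0.05. No detection call was used, and precision is limited by the number of arrays. The fits were tested on simulated data. Figures used matplotlib 3.10.9.

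The members and the 18 lists (202 genes, 159 on the array) were chosen with earlier results of these data known. A list gene was represented by its probe set with the highest mean. The naming rule took every member, Klf15, up to 4 genes per list with the smallest p plus those past the threshold, and the 5 probe sets most like Rgs16; of the list genes it took, the text names some. Lists without knockout quadriceps sample 8 were added after seeing the data. Neighbours of Rgs16 and Rgs5 were added to that rule.

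Same-numbered liver and quadriceps samples did not deviate together (correlations between -0.0837 and 0.0413, none of 8 over 0.1), so numbers were not taken as pairs. Alternatives were other pseudocounts (1 and 64), filters, scalings, batch blocks, 1 probe set per gene and leaving out each array.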

Additional observations from a re-analysis of the deposited data

Results flagged for a closer look

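Of 56 groups of 4 arrays looked at, 2 held an array whose gap to its neighbour was above Dixon's 95% critical value, and chance flags about 1 in 20 groups. Rgs3 on 1425296_a_at read 64.3 in knockout liver sample 8, below the 81.4 to 83.6 of the other 3. Rgs5 on 1420940_x_at read 85.7 (scaled) in knockout quadriceps sample 8, below the 314 to 347 of the other 3. That array had the lowest median signal of the 16 and the highest Gapdh 3′ to 5′ ratio, 1.09, and the part of these in the Rgs5 value was not tested.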

How the results depend on the processing

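The log2 difference of Rgs16 on 1426037_a_at in liver was -5.21 with a pseudocount of 1, -2.61 with 64, and between -4.18 and -3.57 with 1 array left out. The liver count of members past the threshold, set by the choice of the family and no sign of stability, was 3, 1 with 1 probe set per gene by construction, and 3 with each array left out. In quadriceps the count of 0 became 3 with scan day as a block, which amounts to leaving out knockout sample 8, 3 without that sample, also after quantile normalization (chosen after seeing the data), 1 with fluidics module as a block (1420941_at) and 1 with all 16 arrays in 1 fit (1420940_x_at); leave-one-out gave 0 to 3. Over all probe sets the 81 calls in quadriceps became 2772, 2790, 1617, 152 and 539 in these 5 settings, 155 without scaling, and 35 to 64 without any other array; in liver the 1185 calls became 451 with all 16 arrays in 1 fit. Between the tissues the 10 wild-type members, the 3 of Rgs16 included, became 6 with a filter at the 60th percentile (6 tested) and 4 with 1 probe set per gene, and 8 to 10 under leave-one-out; the 7 knockout members became 4 with 1 probe set per gene and 5 to 8 under leave-one-out. With the sample number as a replicate block the counts were 9 and 8, and Rgs3 on 1449516_a_at no longer passed (limma adjusted p = 0.0514); 1 of 8 samples correlated best with its own number. Without scaling, 32.4% of the knockout tissue calls were higher in quadriceps against 48.9% with it, and the median over all probe sets moved from 0.00 to -0.33; in the quadriceps genotype comparison it moved from -0.15 to -0.44. Of 1334 other values, 1289 stayed on the same side of the threshold or within the spread between replicates, 18 no longer passed, 15 passed newly, 12 moved by more than that spread and 0 changed sign while past the threshold. Scan day could not be fitted in liver. No detection call or probe position was used, so signals near the filter and the disagreement of the Rgs5 probe sets cannot be resolved further here.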

Other observations

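Sample 8 of knockout quadriceps did not only fall back to the wild-type level where samples 5 to 7 were high. Of the 232 probe sets that passed at 2-fold or more without it, it lay below every wild-type array for 96. After scaling to 1 median, which multiplied that array by 2.78, its 8 myofibre markers reached the highest sum of the 16, 217183. That place depends on the factor.

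The spread of the Rgs5 probe sets was wide with all arrays as well. It was 1.56 log2 units in quadriceps, and 19 of 2966 genes with several tested probe sets (0.641%, Rgs5 included) spread at least as far. In liver, where signals of all 4 were also measured, the differences between the genotypes lay between -0.06 and 0.06.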
